A study of Mus musculus with 45 samples.

Results

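The 37 genes described here encode the basement membrane of the kidney tubule and glomerulus and the integrins that bind it. They were listed by name and function, with earlier results of these data known, and no measured value enters the rule: 6 type IV collagens, 10 laminin chains, 4 linkers and heparan sulfate proteoglycans (nidogens, perlecan, agrin), netrin-4, ladinin-1 with 3 collagens of the basement membrane zone, nephronectin with 3 proteins of the Fras/Frem complex, 2 tubulointerstitial nephritis antigens and 6 integrin chains. Of 55401 genes counted, 15991 that code for protein were tested in males and 15968 in females, and all 37 were among them. The libraries came from translating ribosome affinity purification (TRAP), in which mRNA is pulled down on ribosomes that carry an EGFP-tagged L10a subunit, followed by RNASeq.

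Each of the 45 libraries came from the kidneys of 1 mouse at 7 weeks of age (postnatal day 49). Noncystic mice (8 males, 7 females) were Pkd1fl/+, with 1 floxed and 1 wild-type allele. Pkd1KO mice (7 males, 8 females) were Pkd1fl/fl. Pkd1KO+ciliaKO mice (9 males, 6 females) were Pkd1fl/fl and Kif3afl/fl, which removes cilia together with Pkd1. Every mouse, controls included, also carried RosaEGFP-Rpl10a, Pax8rtTA and TetOCre and received doxycycline, so the deletion and the tagged ribosomes fall on cells in which the Pax8-driven system had been active. Total counts per library were between 80874556 and 132958186. Levels are given as CPM (counts scaled to the library size after TMM normalization) for comparisons of 1 gene between mice, and as TPM (the authors' values, also scaled to gene length) for comparisons between genes within a sex.

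A basement membrane is a thin sheet of matrix under every epithelium. Laminin trimers of an alpha, a beta and a gamma chain form one polymer and type IV collagen forms another, and nidogens and perlecan tie both together. Integrins on the basal cell surface, above all those with the Itga3, Itga6, Itgb1 and Itgb4 chains, hold tubule cells to laminin, and mutations of the Col4a3, Col4a4 and Col4a5 chains cause Alport syndrome, a disease of the glomerular basement membrane.

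The library checks that touch these genes concern 6 libraries. Kif3a was between 4.83 and 7.54 CPM in male Pkd1KO+ciliaKO mice and at 13.9 CPM or above in the other males. In females the library labelled noncystic replicate 5 had 6.72 CPM of Kif3a, against 22.9 to 25.4 in the other 6 of its group, and the library labelled Pkd1KO+ciliaKO replicate 6 had 20.5 CPM, against 6.58 to 8.35 in the other 5. Both go against their labels, so the female calls of the members and of Vwa1 are given with and without them. In males noncystic replicate 3, Pkd1KO replicate 4 and Pkd1KO+ciliaKO replicates 6 and 8 were taken as standing apart from the other libraries across genes. No value or rule for this choice is given here, and the paper reports no significant outliers in its principal component analyses. Male calls of members that change without these males are given both ways. Where no other fit is named, a gene that passed or did not pass did so in edgeR with all libraries as labelled. Pkd1 itself, counted over the whole gene and so also over exons outside the deleted part, overlapped between all groups and does not check the labels. Of the cell type markers, the 6 of the proximal tubule summed to between 5022 and 11694 CPM per library and the 4 of the thick ascending limb to between 1770 and 4692 CPM. The 6 endothelial markers summed to between 75.7 and 416 CPM and the 6 fibroblast and pericyte markers to between 203 and 1144 CPM, and none of these markers was at 0 in any whole group. In such bulk libraries fewer cells of a type and less RNA per cell cannot be told apart.

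Across the members, 2 genes stood out in the genotype comparisons, both of which the paper had already named from these same libraries. Lad1 (ladinin-1, a protein of the anchoring filaments of the basement membrane zone) and Ntn4 (netrin-4, a laminin-related protein that binds laminin chains and loosens laminin networks) were lower in Pkd1KO mice than in both noncystic and Pkd1KO+ciliaKO mice, in males and in females. Lad1 lies on chromosome 1 of GRCm38 from 135818598 to 135833342 and Ntn4 on chromosome 10 from 93640681 to 93747207, both on the plus strand, and no exon of either overlaps another annotated gene. The 250 bases before the RefSeq start of each (GRCm38.p6, chr1:135818348-135818597 for Lad1 and chr10:93640799-93641048 for Ntn4, plus strand) are shown because these are the members that moved together. Capitals mark matches to any of 6 motifs searched on both strands.
Lad1: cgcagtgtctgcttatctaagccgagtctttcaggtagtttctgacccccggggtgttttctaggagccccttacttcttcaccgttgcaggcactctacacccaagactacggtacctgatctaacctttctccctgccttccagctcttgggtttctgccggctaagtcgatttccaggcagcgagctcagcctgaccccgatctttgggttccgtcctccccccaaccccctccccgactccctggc
Ntn4: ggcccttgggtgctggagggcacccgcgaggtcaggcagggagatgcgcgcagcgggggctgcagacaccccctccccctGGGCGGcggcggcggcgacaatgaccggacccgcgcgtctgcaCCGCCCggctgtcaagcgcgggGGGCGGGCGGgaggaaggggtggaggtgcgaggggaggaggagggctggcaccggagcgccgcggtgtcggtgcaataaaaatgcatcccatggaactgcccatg
The Lad1 stretch is 57.6% G and C and held no match, and the Ntn4 stretch is 73.2% G and C and held 4 matches to the GC box GGGCGG, 2 of which overlap. The RefSeq start of Ntn4 lies inside the gene as counted here, which begins upstream of it. The GC box occurred in 35.7% of all 32851 RefSeq promoters (300 bases, of which 50 lie after the start). The other motifs were the TATA box TATAAA (13.6% of promoters), the CCAAT box (37.4%), the E-box CACGTG (7.15%), the AP-1 motif TGANTCA (7.81%) and the core of Gli and Glis sites GACCACCC (0.807%). Of the 37 members 27 had an entry, with 35 windows, of which 18 held a GC box, 10 a CCAAT box, 2 an AP-1 motif, 1 a TATA box and none the other 2 motifs.

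In male mice Lad1 was at 150 to 301 CPM in the 8 noncystic mice (median 189), at 32.6 to 65.4 CPM in the 7 Pkd1KO mice (median 39.4) and at 61.5 to 87.3 CPM in the 9 Pkd1KO+ciliaKO mice (median 72.5). Every Pkd1KO and every Pkd1KO+ciliaKO male lay below the lowest noncystic male, and 6 of the 7 Pkd1KO males lay below the lowest Pkd1KO+ciliaKO male. The exception was replicate 4, one of the libraries that stood apart. The log2 fold change of Lad1 was -2.25 (standard error, SE, 0.18; adjusted p = 4.2e-06, edgeR quasi-likelihood fit, Benjamini-Hochberg over all genes) in Pkd1KO against noncystic males, or a ratio of 0.21. It was -0.73 (SE 0.13, adjusted p = 0.00404) in Pkd1KO against Pkd1KO+ciliaKO males and -1.52 (SE 0.13, adjusted p = 6.69e-07) in Pkd1KO+ciliaKO against noncystic males. The 3 groups of males were thus in the order noncystic, Pkd1KO+ciliaKO, Pkd1KO, and each step passed the test.

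In female mice Lad1 was at 154 to 365 CPM in the 7 noncystic mice (median 197), at 48.8 to 72.3 CPM in the 8 Pkd1KO mice (median 65.8) and at 93.5 to 219 CPM in the 6 Pkd1KO+ciliaKO mice (median 132). The Pkd1KO females lay below every other female. The highest Pkd1KO+ciliaKO value, 219 CPM, belonged to the library labelled replicate 6, with the other 5 at 93.5 to 136 CPM, and the lowest noncystic value, 154 CPM, to the library labelled replicate 5, with the other 6 at 184 to 365 CPM. The log2 fold change was -1.87 (SE 0.16, adjusted p = 5.33e-06, edgeR) against noncystic and -1.16 (SE 0.16, adjusted p = 0.000562) against Pkd1KO+ciliaKO females. Without those 2 libraries it was -1.95 (adjusted p = 1.21e-06) and -0.97 (adjusted p = 0.000226). Pkd1KO+ciliaKO against noncystic females gave -0.72 (SE 0.21, adjusted p = 0.0708) for Lad1, and -0.98 (SE 0.17, adjusted p = 0.00658) without the 2 libraries.

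Ntn4 had the same order. In males it was at 52.5 to 96.2 CPM in noncystic mice (median 62.6), at 16.8 to 34.5 CPM in Pkd1KO mice (median 18.2) and at 31.4 to 42.1 CPM in Pkd1KO+ciliaKO mice (median 39.8). Noncystic males did not overlap either other group, and the overlap of the others came from the same Pkd1KO replicate 4, at 34.5 CPM. Its log2 fold change was -1.66 (SE 0.18, adjusted p = 0.000132, edgeR) in Pkd1KO against noncystic males, -0.80 (SE 0.14, adjusted p = 0.00272) against Pkd1KO+ciliaKO males, and -0.85 (SE 0.12, adjusted p = 0.000255) in Pkd1KO+ciliaKO against noncystic males. Without the males that stood apart the first 2 were -1.83 (adjusted p = 2.88e-05) and -0.997 (adjusted p = 5.58e-05).

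In females Ntn4 was at 46.1 to 86.7 CPM in noncystic mice (median 53.9), at 18.5 to 26.0 CPM in Pkd1KO mice (median 21.3) and at 35.4 to 61.7 CPM in Pkd1KO+ciliaKO mice (median 42.2). Again the Pkd1KO females lay below every other female, and the libraries labelled Pkd1KO+ciliaKO replicate 6 (61.7 CPM) and noncystic replicate 5 (46.1 CPM) were the highest and the lowest of their groups. The log2 fold change was -1.48 (SE 0.12, adjusted p = 4.15e-06, edgeR) against noncystic and -1.08 (SE 0.11, adjusted p = 5.75e-05) against Pkd1KO+ciliaKO females, and -1.54 and -0.97 without the 2 libraries (adjusted p = 1.21e-06 and 1.43e-05). Pkd1KO+ciliaKO against noncystic females gave -0.40 (SE 0.15, adjusted p = 0.146) for Ntn4, and -0.57 (SE 0.14, adjusted p = 0.0291) without them. Lad1 and Ntn4 passed the threshold in all of the 23 to 26 other fits run for each of the 5 comparisons in which they were called.

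**Figure D1:**
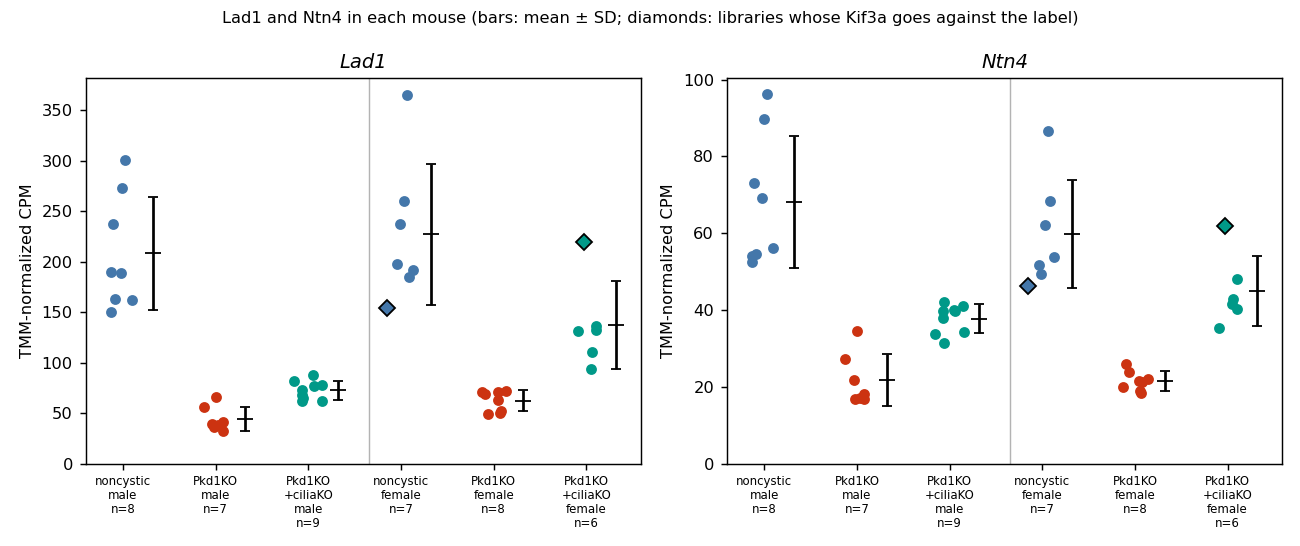
TMM-normalized CPM of Lad1 (left) and Ntn4 (right) in each of the 45 mice, by genotype and sex; circles and diamonds are mice, bars the mean ± SD of a group, and diamonds the 2 female libraries whose Kif3a goes against the label. The Pkd1KO groups lie lowest, with Lad1 at 32.6 to 65.4 CPM in males and 48.8 to 72.3 CPM in females, and the noncystic groups highest, from 150 CPM in males and 154 CPM in females.

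On the scale per length these genes changed their place among the members. By median TPM Lad1 was rank 2 of the 37 members in noncystic males (164 TPM) and noncystic females (194 TPM), rank 11 in male and rank 7 in female Pkd1KO+ciliaKO mice (60.8 and 132.99 TPM), and rank 14 in male and rank 13 in female Pkd1KO mice (34.8 and 64.6 TPM). Ntn4 went from rank 13 in noncystic males (53.0 TPM) and rank 14 in noncystic females (49.4 TPM) to rank 23 in Pkd1KO mice of both sexes (14.4 and 19.3 TPM). These ranks are a description of medians.

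Cell type markers also differed between some of these groups. In males 1 of 4 thick ascending limb markers (Slc12a1, log2 fold change -0.72 against noncystic and -0.73 against Pkd1KO+ciliaKO mice) and 1 of 6 proximal tubule markers (Miox, -0.61 and -0.49) were lower in Pkd1KO mice in both comparisons, and Cubn was also lower against noncystic mice. Without the males that stood apart Miox passed in both (-0.60 and -0.53) and Slc12a1 in neither (-0.61, adjusted p = 0.0605, and -0.48, adjusted p = 0.118). Against Pkd1KO+ciliaKO males Pvalb of the distal convoluted tubule (-2.37) and Foxi1 of intercalated cells (-0.55) were also lower and Csf1r of macrophages higher (0.77). The summed thick ascending limb markers were at 2198 to 4245 CPM in noncystic, 1770 to 3173 CPM in Pkd1KO and 2143 to 3801 CPM in Pkd1KO+ciliaKO males. In Pkd1KO against noncystic males 1 of 4 smooth muscle markers (Acta2), 1 of 5 macrophage (Csf1r) and 2 of 4 tubule injury markers (Lcn2 and Krt20) were higher. Without the males that stood apart Csf1r (adjusted p = 0.0528) and Krt20 (adjusted p = 0.0711) did not pass there, nor Foxi1 against Pkd1KO+ciliaKO males (adjusted p = 0.129), while Cldn16 of the thick ascending limb passed in both comparisons (-0.70 and -0.76). Krt20 then passed against Pkd1KO+ciliaKO males (2.01, adjusted p = 0.0176). In females Miox was lower in Pkd1KO mice against noncystic (-0.65) and Pkd1KO+ciliaKO mice (-0.57), and Slc12a1 against the latter (-0.53). Cldn16 was also lower against noncystic females (-0.53). Against Pkd1KO+ciliaKO females Pvalb (-1.68), Atp6v1g3 of intercalated cells (-0.36) and Ehd3 of endothelial cells (-0.72) were lower, and Csf1r (0.78) and Krt20 of injured tubules (1.21) higher. Without the 2 libraries that go against their labels all of these passed but Krt20 (1.26, adjusted p = 0.0679). Foxi1 (-0.54, adjusted p = 0.0469) and Vcam1 of injured tubules (0.82, adjusted p = 0.0489) then also passed against Pkd1KO+ciliaKO females. In Pkd1KO+ciliaKO against noncystic males 3 of 6 proximal tubule markers were lower (Cubn -0.50, Lrp2 -0.49 and Slc5a12 -0.62), as was Csf1r (-0.42). Pvalb (1.81) and Lcn2 (1.70) were higher there. The summed proximal tubule markers were at 7430 to 11694 CPM in noncystic, 5022 to 10554 CPM in Pkd1KO and 6222 to 9862 CPM in Pkd1KO+ciliaKO males. In females none of these markers passed this comparison with all libraries. With the males that stood apart left out, Col1a1 (0.74, adjusted p = 0.0451) and Col3a1 (0.88, adjusted p = 0.0167) of fibroblasts and pericytes were also higher. So were Acta2 (1.297, adjusted p = 0.0125) and Havcr1 of injured tubules (0.98, adjusted p = 0.0171), where 14% of all genes passed. With the 2 females that go against their labels left out, Ehd3 was higher (0.64, adjusted p = 0.0243), where 5.8% of all genes passed. The part of these markers in the changes of Lad1 and Ntn4 was not tested.

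Over all members, in Pkd1KO against noncystic males 2 of 37 were lower (5.41%, Lad1 and Ntn4) and none was higher, where 2.25% of all genes were lower and 4.05% higher. The median log2 fold change was 0.03 over the members and -0.01 over all genes, and the 35 members that did not pass lay between -0.71 (Lamc3) and 1.08 (Col17a1). In Pkd1KO against Pkd1KO+ciliaKO males the same 2 were lower, beside 1.78% of all genes lower and 1.99% higher, with a median of 0.07 over the members and 0.01 over all genes. The CDCA pattern, a change of the same sign in Pkd1KO against both other genotypes, held in males for 2 of 37 members, beside 1.09% of all genes. The paper had reported Lad1 and Ntn4 with this pattern from these libraries, and the list was made with earlier results known. Shares that rest on these 2 genes are therefore not read as a result about the members. Without the males that stood apart Frem2 (log2 fold change 0.46, adjusted p = 0.00817) and Lama3 (-0.44, adjusted p = 0.0433) also passed against noncystic males, where 5.72% of all genes did, and Frem2 (0.35, adjusted p = 0.0108) and Itgb6 (-0.39, adjusted p = 0.0229) against Pkd1KO+ciliaKO males, where 3.93% did. Leaving out noncystic male replicate 3 alone gave the same 4 members against noncystic males, with the share of all genes in that fit not given here.

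In Pkd1KO against noncystic females 2 of 37 members were lower (5.41%) and 2 higher (5.41%, Fras1 and Itgb4), beside 1.32% of all genes lower and 2.02% higher, and the median was 0.09 over the members and -0.00 over all genes. Against Pkd1KO+ciliaKO females 3 were lower (8.11%, Lad1, Ntn4 and Lama1) and 2 higher (5.41%, Fras1 and Col4a6), beside 4.65% of all genes lower and 7.05% higher. The median there was 0.03 over the members and -0.01 over all genes. The CDCA pattern held in females for 3 of 37 members (Lad1, Ntn4 and Fras1), beside 1.91% of all genes. Since the paper had already reported Lad1 and Ntn4, this share is not read further. Without the 2 libraries that go against their labels, the same 4 members passed against noncystic females (3.49% of all genes passed), and against Pkd1KO+ciliaKO females Col17a1 (log2 fold change 1.01, adjusted p = 0.0284) passed and Col4a6 (0.50, adjusted p = 0.068) did not, with 10.4% of all genes passing.

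In Pkd1KO+ciliaKO against noncystic males 4 of 37 members were lower (10.8%, Lad1, Ntn4, Lama3 and Col4a4) and 1 higher (2.7%, Npnt), beside 3.26% of all genes lower and 5.63% higher. Without the males that stood apart the same 5 passed, where 14% of all genes did. In females no member passed this comparison in edgeR, beside 1.87% of all genes lower and 0.67% higher. DESeq2 called 2 (Lad1 and Lama1), where it called 7.94% of all genes. In edgeR 9 members had an unadjusted p under 0.05, and the share of all genes at that level is not given here, so this count is not read further. Without the 2 libraries edgeR called Lad1, Ntn4 and Lama1, where 5.8% of all genes passed. Leaving out noncystic replicate 5 alone gave 1 member, Lad1, leaving out noncystic replicate 1 gave 1, Lama1, and leaving out Pkd1KO+ciliaKO replicate 6 gave 2, Lad1 and Lama1. The shares of all genes in these fits with 1 mouse left out are not given here.

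**Figure D2:**
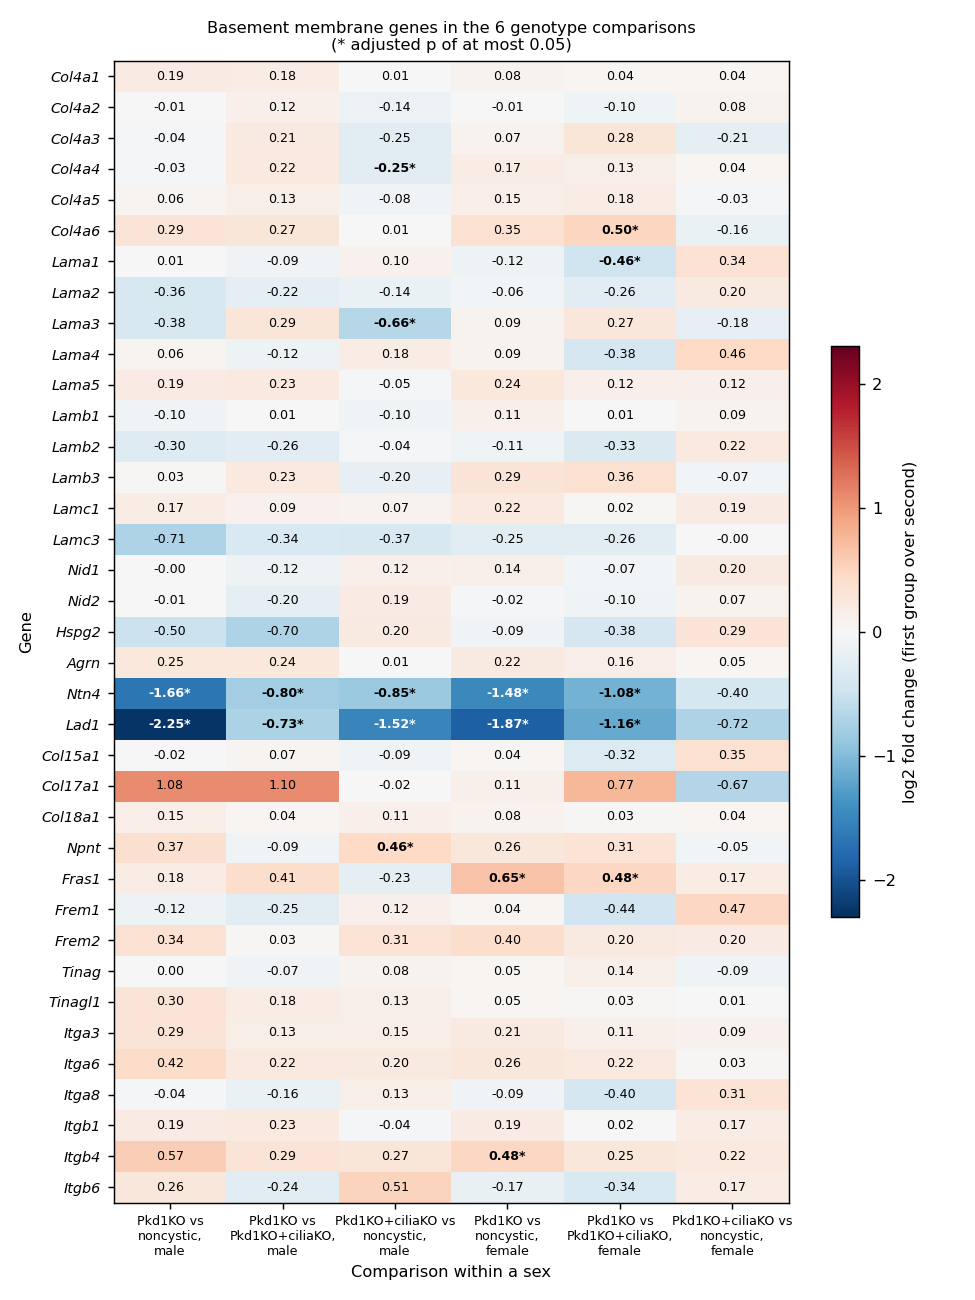
log2 fold changes (colour and printed value, first group over second) of the 37 genes in the 6 genotype comparisons; an asterisk marks an adjusted p of at most 0.05. The rows of Lad1 and Ntn4 are negative in all 6 columns, from -2.25 to -0.40, and most other cells lie near 0.

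By role, the type IV collagens (Col4a1 and Col4a2 in all basement membranes, the other 4 in specialised ones) gave 1 call in Pkd1KO mice, Col4a6 in females. Against noncystic mice none of the 6 passed, with log2 fold changes of -0.04 to 0.29 in males and -0.01 to 0.35 in females. Col4a6 (chromosome X from 141165403 to 141474076) was at 4.76 to 8.85 CPM in the 8 Pkd1KO females (median 6.24), at 3.25 to 5.37 CPM in the 6 Pkd1KO+ciliaKO females (median 4.49) and at 4.2 to 5.61 CPM in noncystic females (median 5.12). Of the Pkd1KO females 6 of 8 lay above every Pkd1KO+ciliaKO female, a log2 fold change of 0.50 (SE 0.15, adjusted p = 0.0434, edgeR). This call was lost when any 1 of 10 of the 14 mice was left out (Pkd1KO replicates 3, 4, 6, 7 and 8 and Pkd1KO+ciliaKO replicates 1, 2, 3, 5 and 6), with adjusted p between 0.0277 and 0.0937 over all 14.

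Col4a4 (chromosome 1 from 82448423 to 82586849) was lower in Pkd1KO+ciliaKO than in noncystic males. It was at 342 to 494 CPM in the former (median 428) and at 449 to 599 CPM in the latter (median 496), with 6 of the 9 below every noncystic male, and the log2 fold change was -0.25 (SE 0.07, adjusted p = 0.0441, edgeR). This call was lost when any 1 of 12 of the 17 mice was left out (noncystic replicates 1, 3, 5, 6, 7 and 8 and Pkd1KO+ciliaKO replicates 1, 2, 3, 4, 5 and 7), with adjusted p between 0.0286 and 0.0855. The partner chain Col4a3 had the same log2 fold change of -0.25 in this comparison and did not pass in edgeR (adjusted p = 0.0883). With DESeq2, which called 13.5% of all genes there, Col4a3 (-0.26, adjusted p = 0.0389) and Col4a4 (-0.26, adjusted p = 0.00918) both passed.

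The type IV collagen genes lie head to head in pairs, and the chains of a pair moved together from mouse to mouse. Col4a4 and Col4a3 start 71 bases apart on chromosome 1, Col4a6 and Col4a5 start 1308 bases apart on chromosome X, and the starts of Col4a1 and Col4a2 on chromosome 8 overlap by 22 bases. The 71 bases between Col4a4 and Col4a3 (RefSeq sequence of GRCm38.p6, chr1:82586850-82586920, plus strand) are shown as the shorter of the stretches that separate a pair, and held none of the 6 motifs.
Col4a4 to Col4a3: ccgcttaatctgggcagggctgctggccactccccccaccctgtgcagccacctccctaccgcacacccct
With each mouse taken as its deviation from the mean of its group on the log2(CPM + 0.1) scale, Pearson's r of Col4a1 with Col4a2 was 0.97 over 24 males and 0.97 over 21 females, and Spearman's rho 0.96 and 0.91. The permutation p, two-sided with 100000 permutations within groups, was 1e-05 for all 4 values, the smallest they can give (adjusted over 10 correlations, 2.5e-05 for r and 5e-05 for rho). Col4a3 with Col4a4 gave an r of 0.86 in males (adjusted permutation p = 2.5e-05) and 0.74 in females (adjusted permutation p = 0.0009), with rho 0.78 and 0.75. Col4a5 with Col4a6 gave 0.82 in males (adjusted permutation p = 2.5e-05) and 0.74 in females (adjusted permutation p = 0.00125), with rho 0.78 and 0.71. Leaving out the 2 mice farthest from the median of the first gene gave r of 0.96, 0.80 and 0.78 for the 3 pairs in males and 0.92, 0.64 and 0.60 in females. The 2 protein partners tested beside them did not pass: Itga6 with Itgb4 gave an r of 0.10 in males and 0.04 in females (adjusted permutation p = 0.699 and 0.833), and Lama3 with Lamb3 an r of 0.31 and 0.11 (adjusted permutation p = 0.219 and 0.699). In males the Lama3 and Lamb3 value rested on a few mice, since r was 0.66 without the 2 farthest and 0.71 without the 4 that stood apart. Over all 666 pairs of members the median r was 0.25 in males and 0.23 in females. The libraries were run as 1 RNASeq batch, and a difference in library composition between mice also enters these values.

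Per length, the chains of a pair were closest in level for Col4a3 with Col4a4 and Col4a1 with Col4a2, and far apart for Col4a5 with Col4a6. In noncystic males the median was 135 TPM for Col4a1 and 103 TPM for Col4a2, 161 TPM for Col4a3 and 137 TPM for Col4a4, but 29.0 TPM for Col4a5 and 1.16 TPM for Col4a6. In noncystic females the same genes stood at 169, 113, 151, 110, 30.2 and 2.08 TPM. Col4a6 was thus the lowest type IV collagen in both sexes.

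Among the 10 laminin chains, Lamb1 had the highest level in noncystic mice of both sexes (62.1 TPM in males, 66.7 TPM in females), ahead of Lama5 (28.0 and 28.8 TPM) and Lamc1 (24.3 and 30.2 TPM), and Lama4 was the lowest (1.78 and 2.06 TPM). The other 6 lay between 3.27 and 20.2 TPM. None of the 10 passed in Pkd1KO against noncystic mice in edgeR with all libraries, with log2 fold changes of -0.71 to 0.19 in males and -0.25 to 0.29 in females. Lamc3 passed in males with DESeq2 (-0.71, adjusted p = 0.0396), and Lama3 without the males that stood apart.

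Lama1 (chromosome 17 from 67697259 to 67822647), the alpha chain of the early tubular basement membrane, was lower in Pkd1KO than in Pkd1KO+ciliaKO females. It was at 21.9 to 36.1 CPM in the former (median 27.6), at 31.8 to 46.1 CPM in the latter (median 38.3) and at 26.8 to 36.4 CPM in noncystic females (median 29.7). Of the 8 Pkd1KO females 5 lay below every Pkd1KO+ciliaKO female, and the log2 fold change was -0.46 (SE 0.11, adjusted p = 0.0117, edgeR), and -0.51 (adjusted p = 0.00815) without the library labelled replicate 6. In Pkd1KO+ciliaKO against noncystic females it was 0.34 (SE 0.09, adjusted p = 0.0663), and 0.40 (adjusted p = 0.0305) without the 2 libraries that go against their labels. In males the groups overlapped throughout, at 29.9 to 50.1, 34.8 to 63.4 and 33.0 to 59.1 CPM in noncystic, Pkd1KO and Pkd1KO+ciliaKO mice (medians 46.2, 40.7 and 44.2), and no male comparison passed.

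Lama3, the alpha chain that pairs with Lamb3 in the laminin of hemidesmosomes, was lower in Pkd1KO+ciliaKO than in noncystic males. It was at 25.1 to 64.8 CPM in noncystic males (median 50.1), at 30.1 to 41.2 CPM in Pkd1KO males (median 38.4) and at 19.8 to 38.0 CPM in Pkd1KO+ciliaKO males (median 31.5). The lowest noncystic value, 25.1 CPM, belonged to replicate 3, one of the males that stood apart, and the next lowest was 36.8 CPM. With replicate 3 included, only 3 of 9 Pkd1KO+ciliaKO males lay below every noncystic male. The log2 fold change was -0.66 (SE 0.16, adjusted p = 0.0151, edgeR), and without the males that stood apart -0.71 (adjusted p = 0.00218). In females Lama3 was at 14.5 to 24.6 CPM in noncystic mice (median 21.5), at 17.2 to 26.2 CPM in Pkd1KO mice (median 21.6) and at 13.9 to 21.3 CPM in Pkd1KO+ciliaKO mice (median 17.2). No female comparison passed, and the groups overlapped. Of the exon bases of Lama3 1.8% overlap an antisense gene, and the use of strand in counting is not given in the sources used here.

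Lamc1, the gamma chain shared by most laminins, did not pass in any comparison in edgeR. It was at 57.0 to 99.2, 67.6 to 105 and 61.3 to 112 CPM in noncystic, Pkd1KO and Pkd1KO+ciliaKO males (medians 70.0, 78.0 and 72.4) and at 65.0 to 90.6, 74.2 to 114 and 78.7 to 99.0 CPM in females (medians 76.6, 84.4 and 88.3). In Pkd1KO+ciliaKO against noncystic females its log2 fold change was 0.19 (SE 0.07, adjusted p = 0.139), among the 3 smallest p of the members in that comparison.

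The linkers and proteoglycans gave no call in any genotype comparison. Perlecan (Hspg2) had the highest level of the 4 in noncystic mice, at 73.5 TPM in males and 78.6 TPM in females, followed by agrin (Agrn, 40.1 and 40.9 TPM), and the nidogens Nid1 and Nid2 lay between 14.7 and 21.3 TPM. The widest difference was that of Hspg2, with a log2 fold change of -0.70 in Pkd1KO against Pkd1KO+ciliaKO males (adjusted p = 0.186). The tubulointerstitial nephritis antigens Tinag, a tubular basement membrane protein at 130 TPM in noncystic males and 161 TPM in noncystic females, and Tinagl1 (24.4 and 34.0 TPM) also did not pass, with log2 fold changes between -0.09 and 0.30 over the 6 comparisons.

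Of the collagens of the basement membrane zone, Col18a1 (the source of endostatin) stood at 64.4 TPM in noncystic males and 92.0 TPM in noncystic females, Col15a1 at 11.3 and 14.0 TPM, and neither passed in a genotype comparison. Col17a1, the transmembrane collagen of hemidesmosomes, was the lowest member in every group (median 0.12 to 0.49 TPM). It was at 0.10 to 0.37, 0.19 to 1.31 and 0.12 to 0.45 CPM in noncystic, Pkd1KO and Pkd1KO+ciliaKO males (medians 0.27, 0.44 and 0.24) and at 0.46 to 1.44, 0.48 to 1.58 and 0.26 to 0.92 CPM in females (medians 0.83, 0.88 and 0.47). Its log2 fold changes of 1.08 and 1.10 in Pkd1KO males against noncystic and Pkd1KO+ciliaKO males did not pass (adjusted p = 0.115 and 0.128, edgeR), with the groups overlapping.

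Fras1 (chromosome 5 from 96373955 to 96784728) encodes an extracellular protein that joins Frem1 and Frem2 in a complex under embryonic epithelia and is mutated in Fraser syndrome. In females it was at 62.4 to 77.8 CPM in noncystic mice (median 67.4), at 78.3 to 149 CPM in Pkd1KO mice (median 105) and at 67.0 to 93.1 CPM in Pkd1KO+ciliaKO mice (median 72.6). Every Pkd1KO female lay above every noncystic female, and 5 of 8 lay above every Pkd1KO+ciliaKO female. The log2 fold change was 0.65 (SE 0.11, adjusted p = 0.00309, edgeR) against noncystic and 0.48 (SE 0.13, adjusted p = 0.0239) against Pkd1KO+ciliaKO females, and 0.65 and 0.46 (adjusted p = 0.00567 and 0.0459) without the 2 libraries that go against their labels. The second call was lost without Pkd1KO+ciliaKO replicate 3 (log2 fold change 0.47, adjusted p = 0.0521) or replicate 5 (0.46, adjusted p = 0.0511).

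In males Fras1 was at 103 to 157 CPM in noncystic mice (median 137), at 109 to 211 CPM in Pkd1KO mice (median 144) and at 86.0 to 163 CPM in Pkd1KO+ciliaKO mice (median 99.8). The groups overlapped, with log2 fold changes of 0.18 and 0.41 in Pkd1KO against noncystic and Pkd1KO+ciliaKO males (adjusted p = 0.456 and 0.119). The sex difference of the change against noncystic mice, male minus female, was -0.47 (SE 0.19, adjusted p = 0.463), so it was not shown to differ between the sexes. Of the partners, Frem2 (13.6 TPM in noncystic males, 18.7 TPM in noncystic females) and Frem1 (1.69 and 2.92 TPM) did not pass in any genotype comparison in edgeR with all libraries. Their log2 fold changes in Pkd1KO against noncystic mice were 0.34 and -0.12 in males and 0.40 and 0.04 in females. Frem2 passed in that female comparison with DESeq2 (0.40, adjusted p = 0.0338), and in both male comparisons of Pkd1KO mice without the males that stood apart, as given above.

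Npnt (nephronectin, chromosome 3 from 132881745 to 132950291) is the basement membrane ligand of the integrin with the Itga8 chain and is needed for kidney development. It had the highest median level of all 37 members in each female group (231 to 261 TPM). In males it was at 102 to 182 CPM in noncystic mice (median 153), at 134 to 218 CPM in Pkd1KO mice (median 189) and at 175 to 234 CPM in Pkd1KO+ciliaKO mice (median 186). Of the Pkd1KO+ciliaKO males 5 of 9 lay above every noncystic male, a log2 fold change of 0.46 (SE 0.11, adjusted p = 0.0165, edgeR), and the change in Pkd1KO against noncystic males was 0.37 (SE 0.13, adjusted p = 0.112). In females it was at 192 to 450, 276 to 547 and 272 to 414 CPM in noncystic, Pkd1KO and Pkd1KO+ciliaKO mice (medians 393, 385 and 320), with overlap throughout and no call. Its receptor chain Itga8 was at 4.58 TPM in noncystic males and 6.26 TPM in noncystic females and gave no call.

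Of the 6 integrin chains, Itgb1, the beta chain of most laminin and collagen receptors, had the highest level (171 TPM in noncystic males, 174 TPM in noncystic females), followed by Itgb6 and Itga6. Itgb1 was at 193 to 258, 222 to 325 and 179 to 254 CPM in noncystic, Pkd1KO and Pkd1KO+ciliaKO males (medians 236, 262 and 229) and at 170 to 225, 191 to 277 and 216 to 263 CPM in females (medians 215, 238 and 226), and passed no comparison in edgeR. Itgb4 (chromosome 11 from 115974709 to 116008412), the chain that pairs with Itga6 in hemidesmosomes, was the 1 integrin that passed a genotype comparison there. In females it was at 8.34 to 10.5 CPM in noncystic mice (median 9.90), at 9.61 to 17.8 CPM in Pkd1KO mice (median 13) and at 9.75 to 12.8 CPM in Pkd1KO+ciliaKO mice (median 10.8).

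Of the 8 Pkd1KO females 7 lay above every noncystic female, and the log2 fold change of Itgb4 was 0.48 (SE 0.11, adjusted p = 0.0226, edgeR). It was lost without noncystic female replicate 2 (0.46, adjusted p = 0.0548) or replicate 6 (0.45, adjusted p = 0.0574), and against Pkd1KO+ciliaKO females it was 0.25 (adjusted p = 0.195). In males Itgb4 was at 6.61 to 9.50, 7.15 to 20.6 and 6.66 to 12.2 CPM in noncystic, Pkd1KO and Pkd1KO+ciliaKO mice (medians 7.00, 10.5 and 9.09), with a log2 fold change of 0.57 (SE 0.19, adjusted p = 0.0949, edgeR) in Pkd1KO against noncystic males. Itgb4 passed in that male comparison with DESeq2 (0.58, adjusted p = 0.0405) and with the 3 genotypes in one fit (0.58, adjusted p = 0.0478). An antisense gene overlaps 7.7% of its exon bases. The other chains, Itga3, Itga6, Itga8 and Itgb6, passed no genotype comparison in edgeR with all libraries, with log2 fold changes between -0.40 (Itga8) and 0.51 (Itgb6). Itga6 passed in Pkd1KO against noncystic males with DESeq2 (0.43, adjusted p = 0.0326) and with the 3 genotypes in one fit (0.43, adjusted p = 0.0344), and Itgb6 as given above without the males that stood apart.

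**Figure D3:**
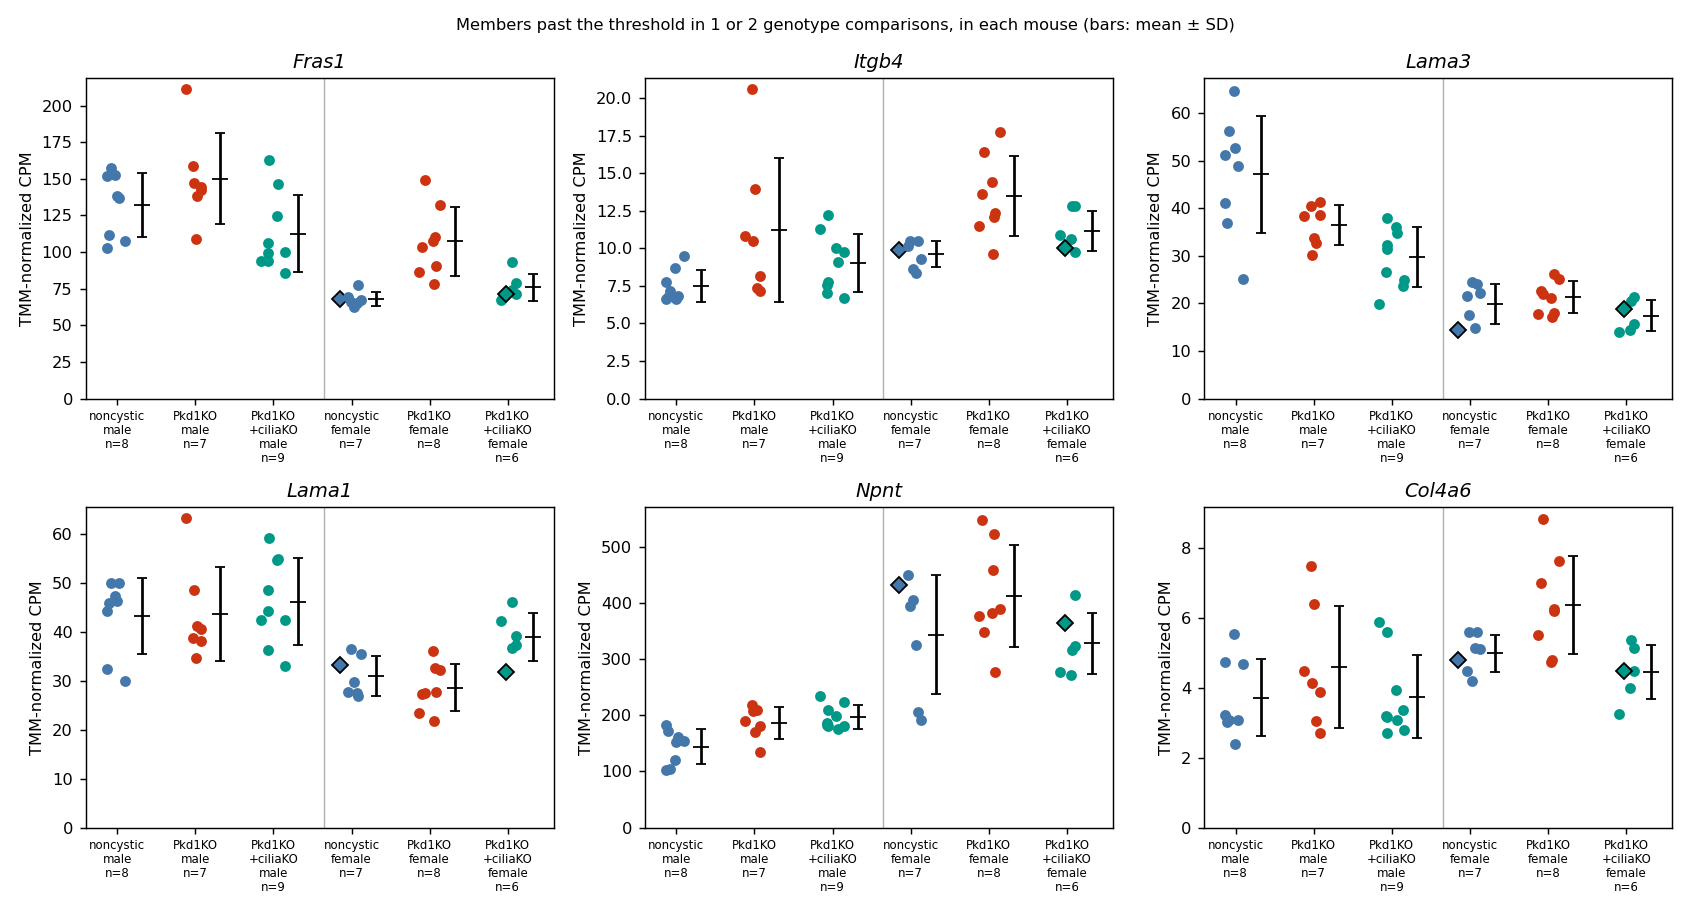
TMM-normalized CPM of 6 other members in each mouse, by genotype and sex; bars are the mean ± SD of a group and diamonds the 2 female libraries whose Kif3a goes against the label. Fras1 in Pkd1KO females (78.3 to 149 CPM) lies above all noncystic females (62.4 to 77.8 CPM), and the other genes overlap between genotypes of a sex.

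The sexes were compared in noncystic mice. Between noncystic males and noncystic females, 4 of 37 members were higher in males (10.8%) and 5 lower (13.5%), beside 15.3% of all 15828 genes higher and 12.2% lower, so the share of members was near that of all genes. Among those higher in males, Lama3 had a log2 fold change of 1.25 (SE 0.18, adjusted p = 5.86e-05, edgeR) and Fras1 of 0.97 (SE 0.10, adjusted p = 1.62e-06), and for both every noncystic male lay above every noncystic female. Lama1 (0.49, adjusted p = 0.00434) and Col4a4 (0.45, adjusted p = 0.000529) were also higher in males, with 6 and 7 of 8 males above every female.

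Among those lower in males, Col17a1 had a log2 fold change of -1.61 (SE 0.27, adjusted p = 0.000254) and Npnt of -1.24 (SE 0.19, adjusted p = 8.69e-05), both without overlap of the groups. Itga6 was at -0.78 (adjusted p = 0.00197), its hemidesmosome partner Itgb4 at -0.35 (adjusted p = 0.00948) and Col18a1 at -0.37 (adjusted p = 0.0208). Lad1 and Ntn4 did not pass, with log2 fold changes of -0.11 (SE 0.18, adjusted p = 0.686) and 0.20 (SE 0.16, adjusted p = 0.384). Of the markers, 2 of 6 proximal tubule genes (Slc22a6 and Slc34a1) and 1 of 5 macrophage genes (Csf1r) were higher in males, and 2 of 4 intercalated cell, 1 of 4 principal cell, 1 of 4 thick ascending limb (Cldn16) and 3 of 4 tubule injury markers lower, beside the 15.3% and 12.2% of all genes. Their part in the sex differences was not tested.

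**Figure D4:**
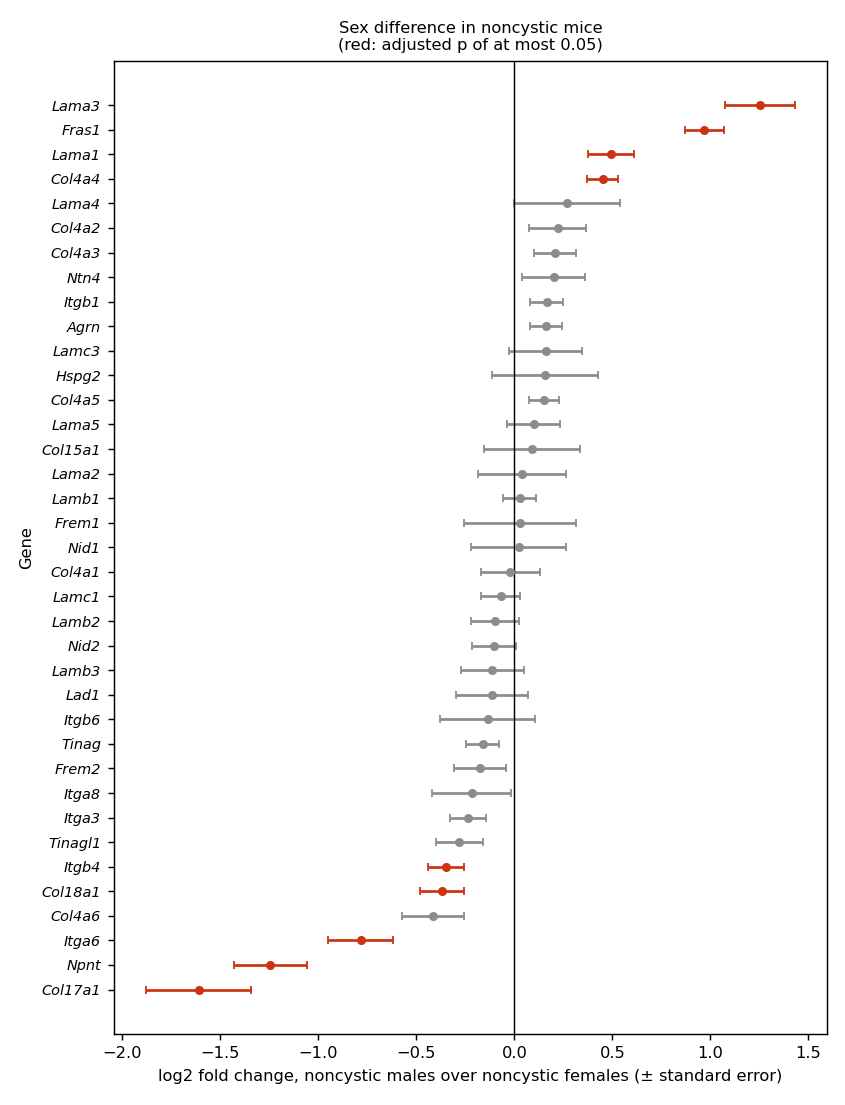
log2 fold change (point) ± standard error (line) of the 37 genes in 8 noncystic males over 7 noncystic females, ordered by value; red marks an adjusted p of at most 0.05. Lama3 (1.25) and Fras1 (0.97) lie at the top and Col17a1 (-1.61), Npnt (-1.24) and Itga6 (-0.78) at the bottom.

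No member passed the test that a genotype difference itself differs between the sexes, in any of the 3 genotype pairs and by edgeR or DESeq2, beside 0.0126%, 0.221% and 0.0316% of all genes by edgeR for Pkd1KO against noncystic, Pkd1KO against Pkd1KO+ciliaKO, and Pkd1KO+ciliaKO against noncystic mice. At an unadjusted p under 0.05 there were 3, 1 and 6 members by edgeR, and the share of all genes at that level is not given here. For Lad1 the sex differences (male minus female log2 fold change) were -0.37 (SE 0.24), 0.43 (0.24) and -0.80 (0.24), with adjusted p = 0.746, 0.698 and 0.395. For Ntn4 they were -0.17 (SE 0.20), 0.28 (0.21) and -0.45 (0.21), with adjusted p = 0.913, 0.769 and 0.859. A p that misses the threshold does not show that both sexes changed alike.

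**Figure D5:**
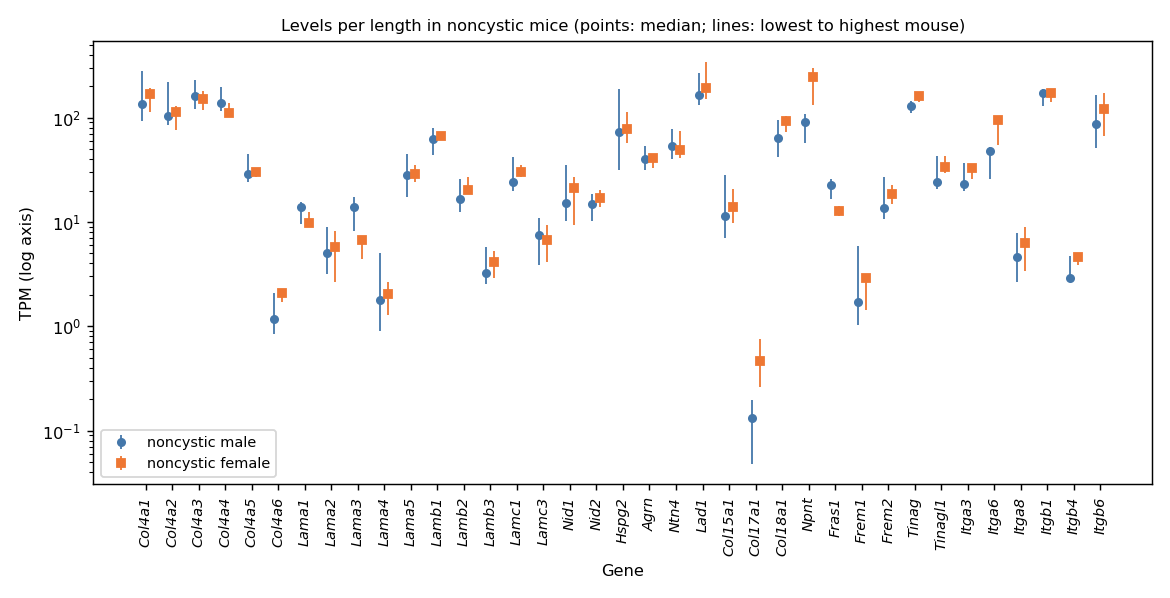
TPM (log axis) of the 37 genes in noncystic males and noncystic females, ordered by role; points are medians and lines run from the lowest to the highest mouse. Levels span from Col17a1 (0.13 and 0.46 TPM) to Itgb1 in males (171 TPM) and Npnt in females (244 TPM).

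Beyond the members, 77 further genes of basement membrane structure, receptors, collagen assembly and matrix proteases were listed, of which 75 were tested in each sex. In Pkd1KO against noncystic mice 3 were higher in males (4%, beside 4.05% of all genes) and none lower, and none passed in females. The 3 were Bcam, a laminin receptor (log2 fold change 0.66, adjusted p = 0.0475), Sdc1, a cell surface proteoglycan (0.41, adjusted p = 0.0259), and Timp1, a protease inhibitor (2.50, adjusted p = 0.0259), and they are named because the count is small. In Pkd1KO against Pkd1KO+ciliaKO mice 1 was higher in males (1.33%, beside 1.99% of all genes), and in females 4 were higher (5.33%, beside 7.05%) and 3 lower (4%, beside 4.65%). In Pkd1KO+ciliaKO against noncystic mice 2 were higher (2.67%, beside 5.63%) and 4 lower (5.33%, beside 3.26%) in males, and 1 was lower in females (1.33%, beside 1.87%). Between noncystic males and females 15 were higher (20%, beside 15.3%) and 12 lower (16%, beside 12.2%) in males. Without the males that stood apart 11 were higher and 7 lower in Pkd1KO+ciliaKO against noncystic males, where 14% of all genes passed.

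With all libraries, the gene of that list that passed in both sexes in the same comparison was Vwa1. This gene encodes WARP, a matrix protein that binds perlecan. It was at 43.0 to 140 CPM in noncystic males (median 111), at 55.6 to 109 CPM in Pkd1KO males (median 83.0) and at 10.3 to 18.4 CPM in Pkd1KO+ciliaKO males (median 14.5), without overlap between the last group and the others. In females it was at 17.3 to 56.7 CPM (median 37.3), 26.6 to 81.2 CPM (median 47.0) and 8.30 to 30.8 CPM (median 14.7) in the same order. The highest of the last group and the lowest of the first were the libraries labelled replicate 6 and replicate 5, which go against their labels. Pkd1KO against Pkd1KO+ciliaKO mice gave a log2 fold change of 2.67 in males (adjusted p = 1.27e-08, edgeR) and 1.57 in females (adjusted p = 0.00272), and Pkd1KO+ciliaKO against noncystic mice -2.86 (adjusted p = 4.78e-08) and -1.28 (adjusted p = 0.0374). Without those 2 libraries the female values of Vwa1 were 1.86 (adjusted p = 0.000423) and -1.70 (adjusted p = 0.000697). Without them and the males that stood apart, 3 other genes of the list also passed in both sexes. Ntn1 did so in Pkd1KO against Pkd1KO+ciliaKO mice (0.37 in males, 0.38 in females), where 3.93% and 10.4% of all genes passed. Bcam (0.53 and 0.39) and Fermt1 (0.22 and 0.35) did so in Pkd1KO+ciliaKO against noncystic mice, where 14% and 5.8% of all genes passed. Vwa1 stood apart in Pkd1KO+ciliaKO and not in Pkd1KO mice, while Lad1 and Ntn4 were lowest in Pkd1KO mice. In males Lad1 and Ntn4 were also lower in Pkd1KO+ciliaKO than in noncystic mice, as given above.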

How the data were processed

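TRAP RNASeq libraries of 45 mouse kidneys were analysed in 6 groups of sex and genotype. The authors deposited raw counts per gene and TPM values, in 1 table of each per sex. Per the labels and methods, reads were trimmed with fastp 0.20.0, aligned with STAR 2.7.9 to GRCm38.p6 and counted with featureCounts 2.0.0 over GENCODE genes; the strand setting is not given in the sources used here. Total counts were between 80874556 and 132958186 per library.

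Genes that code for protein and reached 6 counts in 20% or more of a sex's mice were tested with edgeR 4.0.16 in R 4.3.3 (TMM, quasi-likelihood test, Benjamini-Hochberg adjustment over all genes, adjusted p at most 0.05), for each pair of genotypes within a sex. The sex comparison came from a fit of the noncystic mice alone, and the sex differences from 1 fit over all mice. CPM used TMM library sizes over all 45 mice, and TPM of the sexes came from separate tables. P-values of the fits weigh a difference between groups against the spread between mice. Correlations used log2(CPM + 0.1) as deviations from group means. The fits were tested on simulated data. Alternatives used DESeq2 1.42.0, limma 3.58.1, other filters and scalings, the replicate number as a block, and fits without single or named libraries. Leaving out named libraries for the wider list and the markers was chosen after seeing the data. Promoters came from RefSeq tables of GRCm38.p6 and were scanned in Python 3.11.15.

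Members and gene lists were chosen with earlier results of these data known. Members called in a genotype comparison were described in full, and values by group were given for those with the CDCA pattern and for the 3 smallest p of each other comparison. Genes of the wider list were named when they passed in both sexes in the same comparison. The results of 1 marker list are not reported here.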

Additional observations from a re-analysis of the deposited data

Results flagged for a closer look

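Among 54 groups of mice examined (9 genes in 6 groups), 3 held a mouse far from the rest of its group, where chance gives about 1 in 20 groups. Lad1 was at 219 CPM in the library labelled Pkd1KO+ciliaKO female replicate 6, with the next mouse at 136 CPM. This is one of the libraries whose Kif3a goes against the label. Col17a1 was at 1.58 CPM in Pkd1KO female replicate 4, with the next at 0.993 CPM. Itgb1 was at 263 CPM in Pkd1KO+ciliaKO female replicate 1, with the next at 232 CPM.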

How the results depend on the processing

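The 27 gene and comparison results that were called gave 475 values under alternatives, of which 437 stayed past the threshold, 38 kept their direction and did not pass, and 0 reversed. For Pkd1KO against noncystic males the count of members called was 2 of 37, and 5 with DESeq2 (which called 10.3% of all genes), 5 with the 3 genotypes in one fit (9.06%), 8 with limma voom (9.22%) and 4 without the males that stand apart (5.72%). For Pkd1KO against Pkd1KO+ciliaKO males it was 2, and 4 with limma voom (8.69%) and 4 without those males (3.93%). For Pkd1KO+ciliaKO against noncystic males it was 5, and 9 with limma voom (17.5%). In the same comparison of females it was 0, and 2 with DESeq2 (7.94%), 1 with the 3 genotypes in one fit (3.05%), 2 with limma voom (8.5%), 4 with limma on log2(TPM + 1) (6.26%, with Lamc1, Itgb1, Lamb1 and Lama1) and 3 without the females whose Kif3a goes against the label (5.8%). The cause of these differences was not tested.

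Leaving out 1 mouse at a time gave 2 to 4, 2 to 3 and 4 to 5 members in the male comparisons in that order, and 3 to 5 (Pkd1KO against noncystic), 3 to 6 (Pkd1KO against Pkd1KO+ciliaKO) and 0 to 2 (Pkd1KO+ciliaKO against noncystic) in females. The count of 3 in the second came without Pkd1KO+ciliaKO female replicate 3 or 5. The CDCA pattern held for 2 to 2 members in males and 2 to 3 in females. The share of all genes called in each of these fits is not given here, so a change in the count of members cannot be set against it.

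Replicate numbers did not pair the mice, since deviations of mice with the same number had a median correlation of 0.0117 in males (22 pairs, -0.279 to 0.276) and 0.0167 in females (19 pairs, -0.208 to 0.190). With the replicate number as a block the counts were 3, 2 and 3 in the male comparisons and 4, 3 and 1 in the female ones, where 5.13%, 1.11%, 4.78%, 1.87%, 3.91% and 0.463% of all genes passed, and 2 and 2 for the CDCA pattern.

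Without the 2 mice farthest from the median, r of Itga6 with Itgb4 reversed to -0.19 in males and -0.017 in females, and moved to 0.66 for Lama3 with Lamb3 in males and to 0.92, 0.64 and 0.60 for the type IV collagen pairs in females. Chosen after seeing the data, leaving out the males that stand apart gave 0.95 for Col4a1 with Col4a2, 0.71 for Lama3 with Lamb3 and 0.30 for Itga6 with Itgb4.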
